A study of Macaca mulatta with 12 samples.

Results

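The subunits of respiratory complex I were followed across layers of the lateral geniculate nucleus (LGN), which relays retinal signals to visual cortex, in monocularly deprived rhesus macaques. The list held 37 nuclear-encoded subunit genes with NDUF symbols, and a probe set counted as a member when its gene symbol was exactly 1 of these. In all, 28 of the 37 genes had such a probe set, and they are described here among 7285 genes with a tested probe set. The 28 genes had 35 probe sets, of which 32 were bright enough to be tested. The other 3 (the dimmer probe sets of NDUFA2, NDUFB7 and NDUFA5) were below the filter, and each of these genes had another probe set above it. Of the remaining genes, NDUFC2, NDUFS5 and NDUFS8 lay only on probe sets that name several genes, and NDUFA4, NDUFA11, NDUFA12, NDUFB9, NDUFB10 and NDUFV3 were not analysed here. Of the listed genes, NDUFA4 was classed with cytochrome c oxidase and not with an arm of complex I.

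Total RNA of single LGN layers was measured on 12 arrays, 1 for each of the 6 layers in an ipsilateral and in a contralateral hemisphere. The deprived group was made up of ipsilateral layers 2, 3 and 5 and contralateral layers 1, 4 and 6, and the non-deprived group of ipsilateral layers 1, 4 and 6 and contralateral layers 2, 3 and 5, so each layer was sampled once in each group. Layers 1 and 2 were taken as magnocellular (4 arrays) and layers 3 to 6 as parvocellular (8 arrays) from primate anatomy. All samples came from deprived animals. The sources used here give neither the eye that the hemispheres are named after, nor the method, age and length of the deprivation, nor how many animals were used and which layers came from the same animal. P-values therefore measure the spread between layers and hemispheres, which may be partly technical, and are too small as statements about animals where 1 animal gave several samples. The array was a human expression array, so each difference was taken between samples within a probe set. Levels of different probe sets were set side by side to filter, to pick a gene's brightest probe set, to form signal quartiles and to sum markers.

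Complex I, NADH:ubiquinone oxidoreductase, is the entry point of most electrons into the mitochondrial respiratory chain. Core subunits of its matrix arm take electrons from NADH through a flavin and a chain of iron-sulfur clusters to ubiquinone, and the membrane arm couples that transfer to proton pumping. The accessory subunits surround this core and are needed for its assembly and stability, and neurons draw on the resulting ATP largely to restore ion gradients after firing and synaptic input.

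A value below is a scaled intensity on a linear scale, a difference is on the log2 scale and given with its standard error, and a probe set is called when limma's Benjamini-Hochberg adjusted p over all 11105 probe sets tested is under 0.05. No complex I probe set was called between deprived and non-deprived layers (0 of 32, where 0.0630% of all probe sets tested were called). The subunits nevertheless lay mostly on 1 side: 24 of the 28 genes had a lower fitted level in deprived layers, against 46.9% of all genes tested. Their mean difference was -0.286, about an 18.0% lower level, and their median -0.243, while the median of all genes tested was 0.02. At an unadjusted p under 0.05, 14 of the 32 probe sets (13 genes) were lower, where 6.07% of all probe sets tested were, and 0 were higher, where 5.93% were. The list was chosen with results of these data known, so its counts and means are a description and carry no p.

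**Figure D1:**
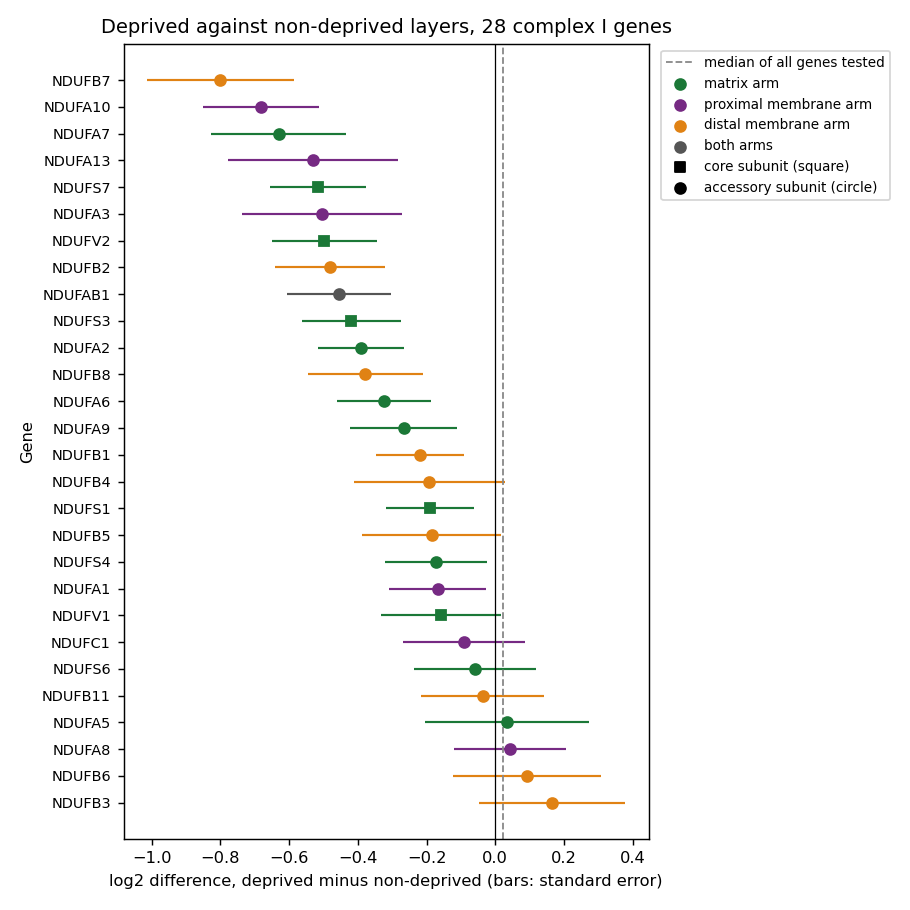
Log2 difference between deprived and non-deprived layers (x axis; bars are standard errors of the limma fit over 12 arrays) for the 28 complex I genes (y axis), 1 probe set each, coloured by the arm of the complex, with squares for core subunits. In all, 24 of 28 points lie left of 0, from -0.80 for NDUFB7 to 0.16 for NDUFB3, and the dashed line marks the median of all genes tested, 0.02.

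The 5 measured core subunits all had negative differences, with a mean of -0.356. NDUFV1, which holds the flavin and the NADH site, gave 6592 ± 1968 in deprived and 7323 ± 2001 in non-deprived layers (SD, n = 6 each), a difference of -0.16 ± 0.17 with a 95% interval from -0.53 to 0.21 (-0.0507 without non-deprived layer 1). NDUFV2, its neighbour with an iron-sulfur cluster, ranged from 5788.3 through a median of 11114.9 to 14181 in deprived layers and from 11608.1 through 12828.5 to 19299.8 in non-deprived layers. Its difference was -0.50 ± 0.15 (1.41-fold lower, adjusted p = 0.208), and the deprived sample was the lower of the 2 in 6 of 6 layers, although the groups overlapped. The overlap came from deprived layers 1 and 2, the magnocellular ones, which stood at 14181 and 12377.8.

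NDUFS1, the large core subunit that carries several iron-sulfur clusters, gave 42596 ± 4792 in deprived and 48885 ± 8453 in non-deprived layers, a difference of -0.19 ± 0.13 (interval -0.46 to 0.08). NDUFS3, which helps to form the junction towards the quinone site, ranged from 10323.3 through 11561.6 to 14158.1 in deprived layers and from 11064.7 through 15746.6 to 22308.9 in non-deprived layers (-0.42 ± 0.14, adjusted p = 0.269, lower in 5 of 6 layers). NDUFS7, which carries the last iron-sulfur cluster before the quinone, ranged from 9277.7 through 11043.9 to 13995.7 in deprived layers and from 12374.6 through 15099.1 to 20423.1 in non-deprived layers. Its difference was -0.52 ± 0.14 (1.43-fold lower, adjusted p = 0.165), lower in 5 of 6 layers. For NDUFS7 only deprived layer 6 (13995.7) reached into the non-deprived range, where layer 6 was itself the lowest (12374.6).

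The 7 measured accessory subunits of the matrix arm had a mean difference of -0.259, 6 of 7 negative. NDUFA7 ranged from 992.9 through 1515.4 to 1897.4 in deprived and from 1585 through 2222.1 to 2777.4 in non-deprived layers (-0.63 ± 0.20, adjusted p = 0.214), lower in 6 of 6 layers. NDUFA2, which has a thioredoxin-like fold, ranged from 16779.1 through 20713.3 to 25262.4 in deprived and from 19532.3 through 27975 to 35201.9 in non-deprived layers (-0.39 ± 0.13, adjusted p = 0.23). Layer 6 was the exception for NDUFA2, with 25262.4 in the deprived and 23277.1 in the non-deprived sample. NDUFA6, an LYR-motif protein that binds an acyl carrier protein, had -0.32 ± 0.14 at its brighter probe set and was lower in 6 of 6 layers, while its dimmer probe set had 0.00 ± 0.21.

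NDUFA9, related to short-chain dehydrogenases, had -0.27 ± 0.16, and NDUFS4, whose loss in mice gives a Leigh-like encephalopathy, had -0.17 ± 0.15. NDUFS6, a zinc-binding subunit, had -0.06 ± 0.18 and NDUFA5 had 0.03 ± 0.24; the sign of both turned in some other settings. NDUFAB1, the mitochondrial acyl carrier protein, sits in both arms. It ranged from 8162.1 through 10721.9 to 16863.1 in deprived layers and from 10563.9 through 16154.8 to 17621.9 in non-deprived layers (-0.46 ± 0.15, adjusted p = 0.249), but was lower in only 4 of 6 layers, with layers 4 and 6 the other way.

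In the proximal membrane arm the mean difference over 6 genes was -0.322, 5 of 6 negative. NDUFA10, a subunit of the nucleoside kinase family, was the only member whose groups did not overlap (1 of 32 probe sets, where 0.351% of all probe sets tested had deprived layers wholly below). Its intensities in layers 1 to 6 were 4017.4, 2434.4, 4223.9, 3952.3, 2473.5 and 3057.7 in the deprived samples. In the non-deprived samples of the same layers they were 4369.1, 6517.9, 6910.2, 4304.6, 5539.9 and 4465.1. The 2 groups came closest between deprived layer 3 and non-deprived layer 4, and their means were 3359.9 ± 808 and 5351 ± 1155 (SD, n = 6 each). That is a 1.60-fold lower level in deprived layers (-0.68 ± 0.17, adjusted p = 0.145), which did not pass.

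NDUFA13, also known as GRIM-19, had -0.53 ± 0.25 (adjusted p = 0.413) and the widest gap of any member in a single layer, with 1729.3 in the deprived and 6081.4 in the non-deprived sample of layer 2. Without that deprived sample its difference was -0.305. NDUFA3, a small single-pass membrane protein, had -0.50 ± 0.23 (adjusted p = 0.405), with gaps of -0.999 and -1.70 in layers 1 and 2, and -0.325 without non-deprived layer 2. NDUFA1, another small membrane protein, had -0.17 ± 0.14, NDUFC1 -0.09 ± 0.18 and NDUFA8, a twin-cysteine protein of the intermembrane-space face, 0.04 ± 0.16. These last 3 had intervals that held 0, and the signs of NDUFA8 and NDUFC1 turned in some other settings.

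Over the 9 genes of the distal membrane arm the mean difference was -0.226, 7 of 9 negative. NDUFB7, also a twin-cysteine protein, had the largest difference of any member at -0.80 ± 0.21 (1.74-fold lower, adjusted p = 0.161). It ranged from 1036.3 through 1457.1 to 1795.8 in deprived layers and from 1686.9 through 2152.7 to 4680 in non-deprived layers, and was lower in 6 of 6 layers. The size of this difference came mainly from layers 1, 2 and 3 (-1.35, -1.80 and -1.002), where layers 4 to 6 had -0.20, -0.31 and -0.14.

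NDUFB2 ranged from 14971.3 through 26172.1 to 35152.8 in deprived and from 25458.6 through 35722.4 to 41200.7 in non-deprived layers (-0.48 ± 0.16, adjusted p = 0.249), and its dimmer probe set had -0.35 ± 0.18. All 3 probe sets of NDUFB8 were lower, at -0.38 ± 0.17, -0.39 ± 0.16 and -0.26 ± 0.18 from the brightest to the dimmest. The second of these had the smallest p of the gene (adjusted p = 0.354), with 3543.1 through 4621.6 to 5674 in deprived and 4462.5 through 5689 to 7584.5 in non-deprived layers. NDUFB1 differed by -0.22 ± 0.13 and was lower in 6 of 6 layers, NDUFB4 by -0.19 ± 0.22 and NDUFB5 by -0.19 ± 0.20. NDUFB11, an X-linked subunit, was at -0.04 ± 0.18, and NDUFB6 (0.09 ± 0.22) and NDUFB3 (0.16 ± 0.21) were the members with the highest positive values. The signs of these last 3 and of NDUFB5 turned in some other settings.

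**Figure D2:**
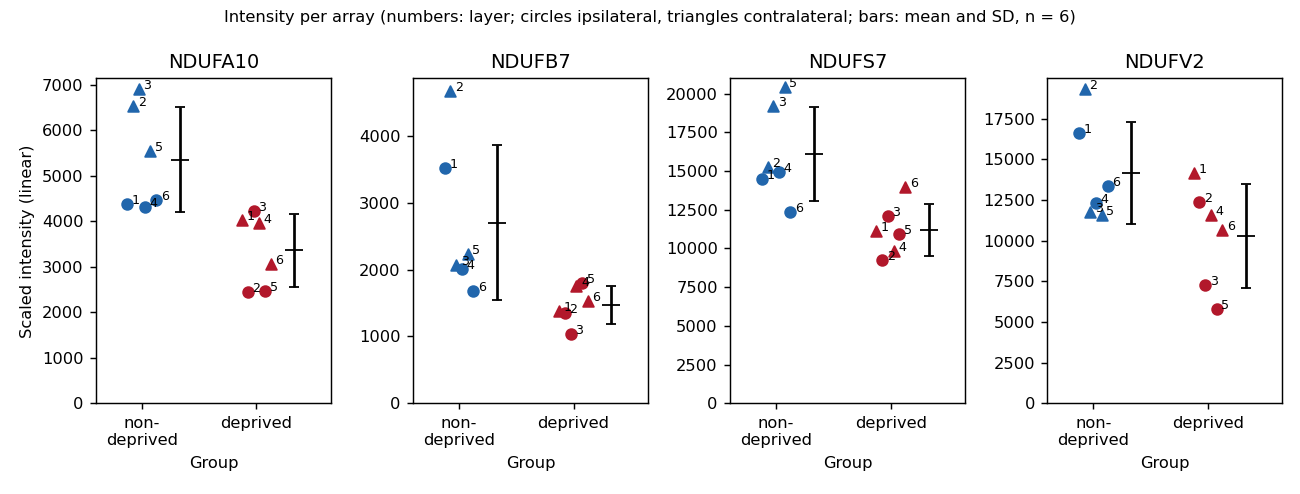
Scaled intensity (y axis, linear, from 0) in each array of NDUFA10, NDUFB7, NDUFS7 and NDUFV2, the 4 members with the smallest p for deprivation; points are single layers labelled by number, circles ipsilateral and triangles contralateral, and bars are the mean and SD of 6 arrays. NDUFA10 alone has no overlap between groups, with all deprived layers at or below 4223.9 and all non-deprived layers at or above 4304.6.

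In all, 7 members were lower in the deprived sample in every layer at their brightest probe set: NDUFA6, NDUFA7, NDUFA10, NDUFB1, NDUFB7, NDUFB8 and NDUFV2. These were 7 of 32 probe sets, where 2.42% of all probe sets tested were lower in 6 of 6 layers. The dimmer probe set of NDUFA6 was lower in 2 of 6 layers, and the other probe sets of NDUFB8 in 4 of 6 each. The core mean was -0.356 and the accessory mean -0.271, a gap of -0.08 that was not tested. The residual SD of core minus accessory score was 0.123 for single arrays, which is not the standard error of that gap between group means. The gap was -0.16 in parvocellular layers alone, -0.03 with quantile normalization and -0.13 to -0.05 without single arrays, and within magnocellular layers alone its sign turned (0.06). The SD over the genes of an arm was 0.199 for the matrix, 0.288 for the proximal and 0.298 for the distal arm, and the arms were not tested against each other.

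**Figure D3:**
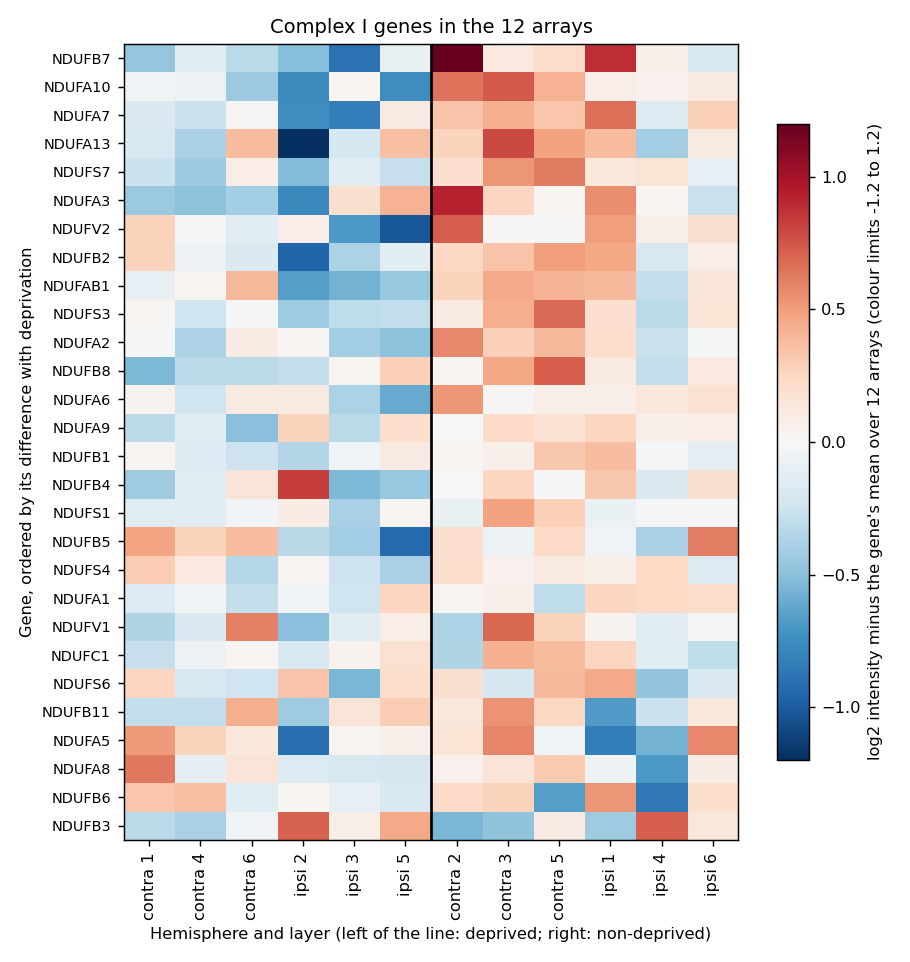
Log2 intensity of the 28 complex I genes (rows, ordered by their difference with deprivation) in each of the 12 arrays (columns, hemisphere and layer), relative to the gene's own mean, on a colour scale from -1.2 to 1.2. Non-deprived contralateral layers 2, 3 and 5 are mostly red, with 24, 25 and 23 of 28 genes above their own mean, and non-deprived ipsilateral layer 4 is mostly blue, with 10 of 28.

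To follow the subunits together in single samples, a complex I score was taken as the mean over the 28 genes of log2 intensity minus the gene's own mean over the 12 arrays. Deprived layers scored -0.143 ± 0.104 and non-deprived layers 0.143 ± 0.154 (SD, n = 6 each). In layer 1 the deprived sample scored -0.0486 and the non-deprived 0.182, a gap of -0.230 where the median of all genes tested differed by -0.17 (59.9% lower). In layer 2 they scored -0.270 and 0.215, with an all-gene median of 0.06. Layer 3 gave the widest gap, -0.265 against 0.283, with 27 of 28 genes lower in the deprived sample, where 44% of all genes tested were (median 0.08). Layer 5 gave -0.114 against 0.238 and layer 6 -0.0259 against 0.0814, with all-gene medians of 0.19 and 0.03. Layer 4 showed no gap, at -0.135 in the deprived and -0.139 in the non-deprived sample, and 17 of 28 genes were lower in the deprived one, where 55.4% of all genes tested were (median -0.08).

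The 2 groups of scores overlapped through that one non-deprived sample, ipsilateral layer 4, since the other 5 non-deprived samples scored from 0.0814 to 0.283 and all deprived samples were below 0. Without it the mean difference was -0.330. Each layer gap also holds the difference between hemispheres: where the deprived sample was ipsilateral (layers 2, 3 and 5) the gaps were -0.485, -0.548 and -0.351, and where it was contralateral (layers 1, 4 and 6) they were -0.230, 0.00 and -0.107. Within hemispheres, where other layers are compared, the mean difference was -0.258 in ipsilateral arrays (21 of 28 genes negative) and -0.315 in contralateral arrays (23 of 28).

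**Figure D4:**
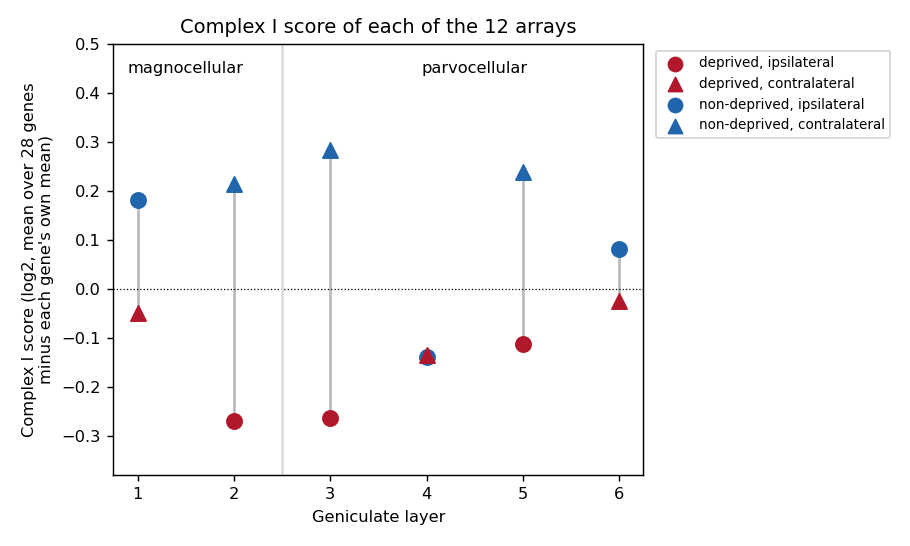
Complex I score (y axis, log2 units: mean over 28 genes of log2 intensity minus the gene's own mean) of each array by geniculate layer (x axis), red for deprived and blue for non-deprived, circles ipsilateral and triangles contralateral; grey lines join the 2 samples of a layer. The deprived sample is the lower one in 5 of the 6 layers, and in layer 4 both samples sit near -0.14.

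Cell-type markers were read beside these scores. All 9 of 9 measured neuron markers (such as NEFM, STMN2, UCHL1 and SNAP25) had negative differences with a mean of -0.250, where 46.9% of all genes tested were negative. Limma called 0, and 3 were lower at an unadjusted p under 0.05, where 6.07% of all probe sets tested were. The summed intensity of the 9 markers ran from 410232 to 501479 in deprived and from 510180 to 592436 in non-deprived layers, without overlap. Such a sum weights the brightest markers most. The mean log2 score of the same 9 markers, formed as for complex I, did overlap. It ran from -0.322 to 0.036 in deprived and from -0.00814 to 0.248 in non-deprived layers. No marker was near 0 (lowest value 5419). These markers were bright, and in the top signal quartile of all genes tested 62.7% were negative and 14.1% were lower at that threshold. Of 4 thalamic relay markers 3 were negative (mean -0.231; summed 96409.7 to 115947 against 101012 to 111171), 0 were called and 1 had an unadjusted p under 0.05.

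Markers of other cell types had positive differences: all 6 measured of 8 listed for oligodendrocytes (mean 0.399; summed 59173 to 142556 deprived, 56759 to 100210 non-deprived) and all 6 measured of 7 listed for astrocytes (mean 0.398; 74618 to 119093 against 48923 to 86531). The 2 measured of 8 for microglia had a mean of 0.337 (5518 to 11754 against 4293 to 6321) and the 5 measured of 6 for endothelium 0.246 (3956 to 7561 against 3751 to 5890.4). Of these 19 markers limma called 0, and 6 were higher at an unadjusted p under 0.05, where 5.93% of all probe sets tested were. The lowest value of any of the 19 was 128.8, so none was at 0. The part of all these cell types in the complex I result was not tested. The complex I score minus the neuron-marker score of the same array was -0.0183 ± 0.0441 in deprived and 0.0183 ± 0.111 in non-deprived layers (SD, n = 6 each), beside -0.143 and 0.143 for the complex I score itself; these are values with no test. In bulk layers, fewer neurons and less complex I RNA per neuron cannot be told apart.

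Signal level and RNA quality were read beside the same result. The top signal quartile of genes (1821) held 20 of the 28 members; over all its genes the median difference was -0.07 and 62.7% were negative, and over its 20 members the median was -0.35 and 19 were negative. In that quartile 14.1% of all genes were lower at an unadjusted p under 0.05, against 2.14% in the lowest quartile, and 11 of the 20 members were. Of the 8 members outside it 5 were negative and 2 were lower at that threshold. The GAPDH control's 3'/5' signal ratio, a sign of RNA degradation, was 9.38 and 11.0 in deprived ipsilateral layers 2 and 5 and 2.21 to 5.65 in the other 10 arrays. Without those 2 arrays the mean complex I difference was -0.305, with 24 of 28 genes negative. Deprived ipsilateral layer 2 also correlated least with the other arrays (mean r over probe sets 0.868, others 0.898 to 0.934), and without it the mean was -0.269.

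Whether the difference with deprivation itself varied between cell classes was tested by an interaction term. No complex I probe set was called (0 of 32, where 0% of all probe sets tested were called), and 2 of 32 had an unadjusted p under 0.05, where 8.73% of all probe sets did. That count was not above the share of all probe sets, and the 2 genes, NDUFA3 and NDUFB7, are given as values only. Their differences with deprivation were more negative in magnocellular layers by 1.26 and 1.16 on the log2 scale (-1.26 ± 0.39 and -1.16 ± 0.36, adjusted p = 0.422 for both). For NDUFB7 the magnocellular samples were 1381.9 and 1344.8 deprived against 3522.8 and 4680 non-deprived, with all 8 parvocellular samples between 1036.3 and 2230.2. The 2 non-deprived magnocellular samples thus stood above all others for this gene. They were also the highest for NDUFA3, at 7480.9 and 9637.1, against 3743.2 and 2974.4 deprived and 3624.6 to 6776.6 in parvocellular samples.

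Taken over the 28 genes, the mean difference with deprivation was -0.357 in magnocellular arrays (22 of 28 negative, 4 arrays) and -0.251 in parvocellular arrays (27 of 28, 8 arrays). The interaction of deprivation with hemisphere is in this design the same contrast as layers 2, 3 and 5 against layers 1, 4 and 6. It cannot be told apart from a difference between those layers. This term also gave 0 of 32 called (0% of all probe sets). At an unadjusted p under 0.05 there were 3 of 32, where 6.57% of all probe sets were, and these 3 are given as values only. They were NDUFB8 (0.83 ± 0.27, adjusted p = 0.547), NDUFB5 (-0.86 ± 0.35, adjusted p = 0.69) and NDUFV2 (-0.60 ± 0.27, adjusted p = 0.73), with signs in both directions.

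Magnocellular and parvocellular layers were compared next. No complex I probe set was called (0 of 32, where 0.720% of all probe sets tested were). The mean difference, magnocellular minus parvocellular, was 0.03 with 12 of 28 genes negative, where the median of all genes tested was -0.06. At an unadjusted p under 0.05, 2 of 32 were lower in magnocellular layers, where 9.35% of all probe sets tested were, and 3 were higher, where 5.24% were. These counts were near the shares of all probe sets, and the subunits of smallest p are given as values only.

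NDUFV2 had the smallest p, with 12377.8 through 15385.3 to 19299.8 in the 4 magnocellular and 5788.3 through 11584.5 to 13354.8 in the 8 parvocellular arrays, a 95% interval of 0.25 to 0.94 around 0.60 ± 0.16 (adjusted p = 0.118). Its neighbour NDUFV1 pointed the other way, with 4766.6 through 5217.4 to 6950.3 against 5976.2 through 6889.2 to 10890.4 (-0.45 ± 0.18, adjusted p = 0.284). Both pairs of ranges overlapped. NDUFB11 had 2609.5 through 3266.4 to 4582.9 in magnocellular against 3417.2 through 4819.8 to 6062.3 in parvocellular arrays (-0.47 ± 0.19, adjusted p = 0.27), and its sign turned with the ACTB ratio in the fit (0.08). NDUFS6 had 4292.8 through 4621 to 5147.2 against 2567.6 through 3271.3 to 4918.9 (0.46 ± 0.19, adjusted p = 0.276).

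Ipsilateral layers had lower complex I values than contralateral layers for 23 of the 28 genes, against 42.2% of all genes tested, and again no probe set was called (0 of 32, where 0.108% of all probe sets tested were). The mean difference, ipsilateral minus contralateral, was -0.175 against a median of 0.06 over all genes tested, and all 5 core subunits were negative (mean -0.241). At an unadjusted p under 0.05, 8 of 32 probe sets were lower, where 7.13% of all probe sets tested were, and 3 were higher, where 13.0% were. The scores overlapped widely, at -0.0875 ± 0.184 ipsilaterally and 0.0875 ± 0.178 contralaterally (SD, n = 6 each). The mean was -0.146 within deprived and -0.204 within non-deprived samples.

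Control 3'/5' ratios moved with hemisphere too. The GAPDH ratio ran from 2.87 through 5.34 to 11.0 in ipsilateral and from 2.21 through 3.38 to 4.09 in contralateral arrays, and the ACTB ratio from 20.3 through 37.9 to 62.9 against 17.0 through 25.1 to 38.2. With the ACTB ratio in the fit the mean complex I difference was -0.0878, with 18 of 28 genes negative and 2 probe sets lower at an unadjusted p under 0.05. With the GAPDH ratio the mean was -0.176 with 26 of 28 negative, and 0 probe sets were lower at that threshold. With quantile normalization the mean was -0.126, with 21 negative and 3 lower. The share of all probe sets at that threshold is not given for these settings.

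NDUFAB1 had the smallest p here, with 8162.1 through 9991.5 to 16843.1 in ipsilateral and 12024.8 through 16164.8 to 17621.9 in contralateral arrays (-0.48 ± 0.15, adjusted p = 0.13). NDUFB3 was the exception in direction, with 794.3 through 1315.2 to 1756.2 against 729.2 through 834.7 to 1143.6 (0.56 ± 0.21, adjusted p = 0.173). The probe sets of 3 genes disagreed in this comparison. NDUFA6 had 0.67 ± 0.21 at its dimmer probe set (990.2 through 1565.4 to 2282.7 against 703.5 through 1026.5 to 1189.5, adjusted p = 0.13) and -0.17 ± 0.14 at its brighter one.

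The dimmest probe set of NDUFB8 (1163.8 through 1730.8 to 2135.2 against 860.7 through 1258 to 1326.8) had 0.50 ± 0.18 (adjusted p = 0.158), the middle one -0.28 ± 0.16 and the brightest -0.01 ± 0.17. For NDUFB2 the dimmer probe set had 0.15 ± 0.18 and the brighter -0.38 ± 0.16. Over all genes tested the hemisphere difference also went with signal: its median was 0.29 in the lowest signal quartile and -0.11 in the top one, where 69% of genes were negative; the 20 members in the top quartile had a median of -0.25, with 17 negative. All 9 neuron markers were negative too (mean -0.138; summed 410232 to 592436 ipsilateral, 463190 to 579088 contralateral), and the parts of signal level and cell makeup in this comparison were not tested. Without non-deprived layer 6, 3 member probe sets were called, the dimmer ones of NDUFA6 and NDUFB8 as higher and NDUFB5 as lower. In that setting 851 probe sets were called in all, against 12 with every array, so the rise in calls was not particular to complex I.

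**Figure D5:**
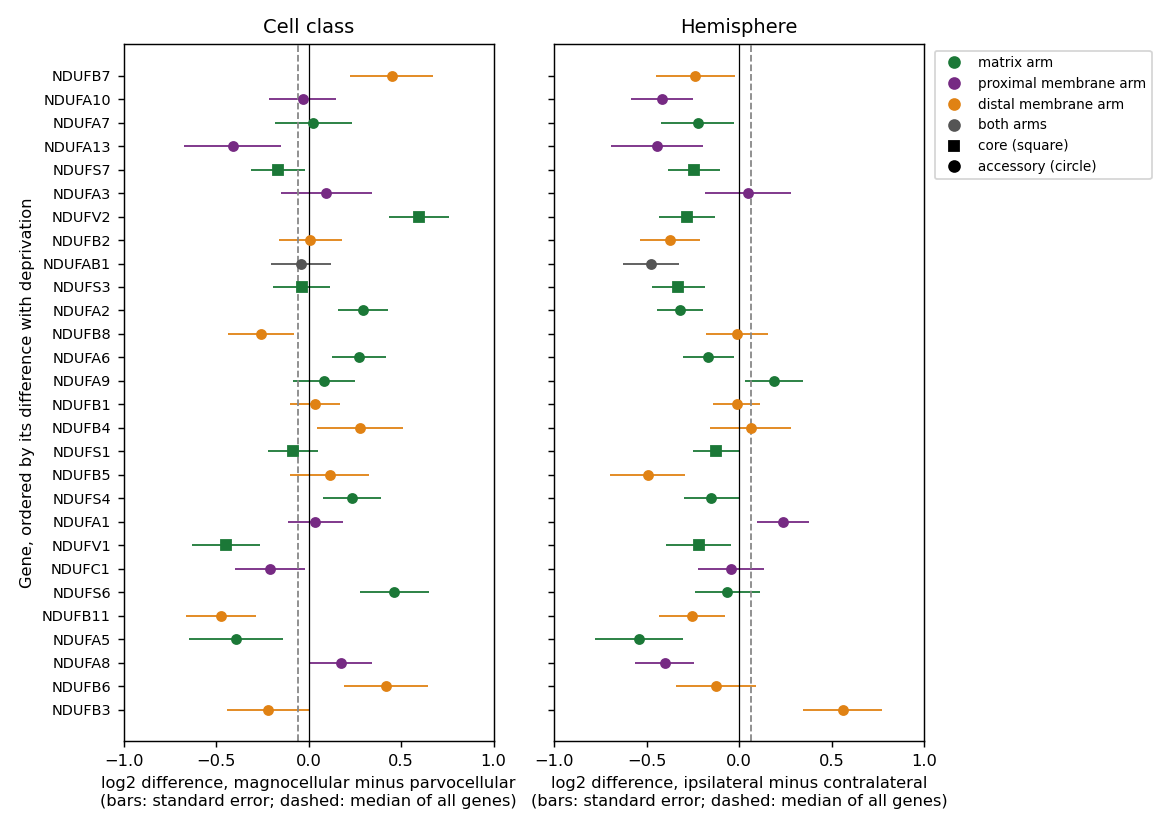
Log2 difference between magnocellular and parvocellular layers (left) and between ipsilateral and contralateral hemispheres (right) for the 28 complex I genes (rows, in the order of their difference with deprivation), with standard errors of the limma fit as bars; dashed lines are medians of all genes tested. Points scatter on both sides of 0 for cell class, with 12 of 28 negative, and lie mostly left of it for hemisphere, with 23 of 28 negative.

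Genes that build or regulate complex I without being part of it were read from 2 further lists, for the comparison of deprived with non-deprived layers. Of 17 assembly factors 6 were tested, 0 were called by limma and 0 had an unadjusted p under 0.05; 4 were negative, with a mean of -0.083. The 2 smallest p belonged to NDUFAF3, which acts early in matrix-arm assembly (-0.26 ± 0.25, adjusted p = 0.74), and ECSIT, which acts in membrane-arm assembly (-0.28 ± 0.32, adjusted p = 0.787). Of 12 regulators of nuclear respiratory genes and mitochondrial DNA 9 were tested, with 0 called by limma and 0 at an unadjusted p under 0.05, 3 negative and a mean of 0.06. ESRRA, the estrogen-related receptor alpha, had -0.38 ± 0.20 (adjusted p = 0.478) and NRF1, nuclear respiratory factor, 0.41 ± 0.25 (adjusted p = 0.559), and neither passed.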

How the data were processed

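The deposited table held 1 positive, linear intensity per probe set (22283) and array of a human Affymetrix array; per the labels the samples were single LGN layers. Which software made them was not given in the sources used here. Across the arrays the 2%-trimmed mean was 1500.45 to 1500.6, so the authors' deposited intensities were used as scaled. Values under the pooled 20th percentile (110.8; 0.0683% of tested values) were raised to it, and log2 was taken. After 68 controls, probe sets with a mean log2 value at or above the median of all were tested (11105). The test was limma's lmFit with trended eBayes (version 3.58.1, R 4.3.3), two-sided, with deprivation, cell class and hemisphere as terms over 12 arrays (8 residual degrees of freedom, 7 with an interaction). It was also run on simulated data with planted changes larger than the difference of any member with deprivation, so that run does not speak to differences of the reported size. For scores and gene counts the brightest probe set of a gene was kept. Genes were named from the platform annotation, and no probe set with several genes was used.

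The members, roles, marker and pathway lists, tests and alternatives were chosen with earlier results of these data known. Full values were given for the 10 members of smallest p with deprivation, the 4 each with cell class and hemisphere, and the core subunits; from the pathway lists, for the 2 genes of smallest p. Other members and probe sets were added because the same genes or patterns were described, after their values were seen. Alternative settings were fewer terms, the layer number as a block, quantile normalization, median centring, no floor, no filter, no trend, control 3'/5' ratios as covariates, subsets of arrays and leaving out each array. No sequences or coordinates were used here.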

Additional observations from a re-analysis of the deposited data

How the results depend on the processing

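With 12 arrays the standard errors of single subunits (0.13 to 0.25 on the log2 scale) limited what could pass. The count of complex I probe sets called stayed at 0 for deprivation, cell class and both interactions in every setting that could be fitted. For hemisphere it was 0 except without non-deprived layer 6, where it was 3 and 851 probe sets were called in all. There the dimmer probe set of NDUFA6 reached 0.847 (0.562 to 0.847 without single arrays) and that of NDUFB8 0.609 (0.398 to 0.609). Median centring, which shifted the median of all probe sets tested from 0.03 to -0.11 for deprivation and from 0.07 to -0.25 for hemisphere, gave mean differences of -0.423 and -0.493. Centring cannot move the means relative to that median (-0.311 and -0.244), whereas quantile normalization gave -0.239 and -0.112. With the ACTB ratio as a covariate the cell class mean was 0.159 and NDUFB11 with cell class 0.084. Core minus accessory was -0.0848, with -0.0255 under quantile normalization, -0.157 in parvocellular layers only, -0.131 to -0.0473 without single arrays, and 0.06 in magnocellular layers only, a setting chosen after seeing the data together with those within 1 hemisphere or 1 group. The causes of these shifts were not tested.

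Without single arrays the mean difference with deprivation ran from -0.330 to -0.256, with 23 to 27 genes negative and 9 to 14 probe sets lower at an unadjusted p under 0.05. That number was 7 in parvocellular layers only and 18 after median centring, which also moved the median of all probe sets tested to -0.11. The share of all probe sets at that threshold is not given for these settings, so these counts have no background here. The sign of 8 of the 28 genes turned in some settings. NDUFA5 had -0.0822 with quantile normalization, -0.103 after median centring, -0.0424 with the ACTB ratio and -0.0153 in parvocellular layers; without single arrays it ran from -0.105 to 0.207. NDUFA8 had -0.0944 after median centring and -0.0539 in parvocellular layers (-0.0528 to 0.130 without single arrays). NDUFB3 had -0.0287 without the 2 arrays whose GAPDH ratio was highest and -0.0942 in parvocellular layers. NDUFB5 had 0.0148 without those 2 arrays (-0.270 to 0.00476 without single arrays), and NDUFB6 -0.0452 after median centring (-0.051 to 0.199). Without single arrays NDUFB11 ran from -0.110 to 0.0947, NDUFC1 from -0.185 to 0.0156 and NDUFS6 from -0.160 to 0.0537. Leaving out some single array moved 8 genes by over 1.5 times with no sign turn from any single array: NDUFA13 (-0.699 to -0.305), NDUFA3 (-0.663 to -0.325), NDUFV1 (-0.258 to -0.0507), NDUFB4 (-0.396 to -0.0546), NDUFS1 (-0.277 to -0.120), NDUFS4 (-0.223 to -0.101), NDUFA1 (-0.229 to -0.106) and NDUFB3 (0.0229 to 0.271). Of these, NDUFB3 is also among the genes above whose sign turned in other settings.

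With the layer number as a replicate block the mean was -0.286 with 0 probe sets called. At an unadjusted p under 0.05, 13 were lower (share of all probe sets not given). Deviations of same-numbered samples correlated at -0.250 to -0.00159 and 0 of 12 samples correlated best with their own number, so no pairing by layer was seen. The 2 samples of a layer always differed in both deprivation and hemisphere, so these values cannot exclude a shared effect of layer or animal. The block could not be fitted for cell class or for the interaction with hemisphere. Leaving out NDUFA4 was not run, as it was not among the measured members.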
